A study of Mus musculus with 20 samples.

Results

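The genes of 8 secreted modulators of Wnt signalling, Sfrp1, Sfrp2, Sfrp4, Sfrp5, Frzb, Dkk2, Dkk3 and Wif1, were followed in mouse cardiac fibroblasts before and after myocardial infarction (MI). They were taken by gene symbol, and are 8 of the 25746 genes of the RNA count table. Their chromatin was read from the ATAC-seq peak lists, in which a peak marks a stretch that the transposase could reach, within each gene's span and 100 kb on either side. The cells came from mice carrying a tamoxifen-inducible Cre (MerCreMer) and an eGFP lineage label for cells that had expressed Tcf21, a transcription factor gene of resident cardiac fibroblasts. Hearts were uninjured or taken 3 days, 7 days, 2 weeks or 4 weeks after MI, and each of these groups had 2 RNA-seq and 2 ATAC-seq libraries. Mice had tamoxifen at 75 mg/kg/day for 5 days, and the eGFP-positive cells were sorted with a gate set on eGFP-negative wild-type cells. RNA came from 10000 sorted cells per library. Fibroblasts without the label are outside the sort, and neither the age and strain of the mice nor the interval between tamoxifen and MI is stated.

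Wnt proteins are secreted ligands that bind Frizzled receptors together with the coreceptors Lrp5 and Lrp6, and in the canonical branch this stabilises beta-catenin, which acts on genes with TCF/LEF factors. The secreted frizzled-related proteins (Sfrp1, Sfrp2, Sfrp4, Sfrp5 and the product of Frzb, also called sFRP3) carry a Frizzled-like cysteine-rich domain and bind Wnt proteins outside the cell. Wif1 encodes Wnt inhibitory factor, which binds the ligands through a WIF domain. Dkk2 encodes a Dickkopf protein that binds Lrp5 and Lrp6, and Dkk3 encodes a divergent family member that is not a classical Wnt antagonist. In the injured heart, secreted Wnt modulators are known for effects on scar formation, and Sfrp2 is also known as a modulator of the enzymes that trim procollagen.

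Promoters of 5 of the 8 genes were found in a RefSeq table (GRCm38.p6, the mm10 build of the files), each running from 250 bases before the start to 50 after it. Those of the 4 genes on which the results below turn are shown 5′ to 3′ on the gene's strand. Wif1 is shown because its start had a peak in every library while its RNA was low after MI, Dkk2 because its start had a peak only after MI, and Sfrp2 and Frzb because their RNA rose while the start had a peak in every library. Capitals mark the matches found in a search of both strands for CTTTGAA and CTTTGAT (TCF/LEF), TGANTCA (AP-1), TGTGGTT (RUNX), GGAATG (TEAD), the E-box CAGCTG and the core promoter motif TATAAA.
Wif1: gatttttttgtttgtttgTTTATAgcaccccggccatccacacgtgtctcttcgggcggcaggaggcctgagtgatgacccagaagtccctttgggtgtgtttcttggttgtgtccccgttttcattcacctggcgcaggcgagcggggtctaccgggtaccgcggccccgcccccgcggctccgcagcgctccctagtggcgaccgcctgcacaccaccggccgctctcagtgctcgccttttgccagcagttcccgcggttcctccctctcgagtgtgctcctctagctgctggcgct
Dkk2: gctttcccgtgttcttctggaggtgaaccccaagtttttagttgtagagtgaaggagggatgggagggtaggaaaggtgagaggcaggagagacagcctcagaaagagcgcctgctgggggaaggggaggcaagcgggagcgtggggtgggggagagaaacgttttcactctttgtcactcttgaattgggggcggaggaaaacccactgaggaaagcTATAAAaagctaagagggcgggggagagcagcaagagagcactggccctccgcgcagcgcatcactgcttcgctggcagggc
Sfrp2: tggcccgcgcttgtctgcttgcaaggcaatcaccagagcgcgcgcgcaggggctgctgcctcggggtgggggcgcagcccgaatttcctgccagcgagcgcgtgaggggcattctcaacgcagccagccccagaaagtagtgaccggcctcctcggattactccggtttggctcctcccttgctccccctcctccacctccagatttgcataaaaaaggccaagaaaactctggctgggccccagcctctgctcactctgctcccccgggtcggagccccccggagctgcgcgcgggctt
Frzb: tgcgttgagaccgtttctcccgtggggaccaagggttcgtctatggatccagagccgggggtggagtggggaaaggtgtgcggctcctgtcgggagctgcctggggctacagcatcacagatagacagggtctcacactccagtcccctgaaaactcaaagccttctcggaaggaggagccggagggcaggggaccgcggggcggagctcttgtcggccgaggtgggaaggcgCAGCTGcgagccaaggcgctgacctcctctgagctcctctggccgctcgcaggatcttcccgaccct
The Wif1 window lies at chr10:121033754-121034053 on the plus strand, and its capitals are TATAAA read on the opposite strand, with the first base of TTTATA 232 bases before the start. The Dkk2 window lies at chr3:132085042-132085341 on the plus strand and holds TATAAA with its first base 32 bases before the start. The Sfrp2 window at chr3:83766071-83766370, plus strand, held no match to any of the 7 motifs. The Frzb window at chr2:80447347-80447646, minus strand, holds CAGCTG 17 bases before the start. The Sfrp5 promoter, not printed, also held no match. TATAAA was found in 13.6% of the 32851 promoters of the table and CAGCTG in 16.3%, while CTTTGAA was found in 5.14%, CTTTGAT in 3.73%, TGANTCA in 7.81%, TGTGGTT in 5.27% and GGAATG in 14.7%. A match is a run of letters and not a shown binding site. The Wif1, Sfrp2 and Frzb windows held 25, 22 and 20 CpG dinucleotides and the Dkk2 window 11, against a median of 7 over all promoters. Sfrp1, Sfrp4 and Dkk3 were not found in the table.

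The RNA libraries held 16397211 to 21043997 estimated counts. All 10 fibroblast markers of a fixed list were detected, and their summed level was 30931 and 19537 CPM (counts scaled to library size) at day 3, 34772 and 41170 CPM at day 7, 38103 and 28750 CPM at week 2 and 62944 and 58814 CPM at week 4, against 61179 and 64028 CPM in uninjured hearts. The 10 did not move as one, with 4 called higher and 5 lower at day 3, 3 and 4 at day 7, 2 and 2 at week 2, and 2 and 0 at week 4. Gsn weighed most in the sum in uninjured hearts, with 3643 and 1053 CPM at day 3 against 30111 and 28491 CPM in uninjured hearts, while Col1a1 had 5888 and 3975 CPM at day 3 against 903 and 415 CPM in uninjured hearts. Of 20 macrophage and monocyte markers, 14, 17, 8 and 5 were higher than in uninjured hearts at day 3, day 7, week 2 and week 4. Their summed level reached 957 and 1642 CPM at day 3, 2924 and 4780 CPM at day 7, 780 and 1100 CPM at week 2 and 332 and 458 CPM at week 4, against 127 and 129 CPM in uninjured hearts, and none was at 0 throughout. Epicardial markers, with 8 listed, summed to 157 CPM in week 2 replicate 1 and 3.53 to 37.8 CPM in the others. Erythroid markers, with 5 listed, summed to 4132 and 5984 CPM in uninjured hearts and 142 to 3717 CPM after MI. Those of pericytes and smooth muscle, with 12 listed, summed to 997 and 469 CPM in uninjured hearts and 198 to 1269 CPM after MI. Of 16 endothelial markers, 8 were lower at day 3, 6 were higher and 1 lower at day 7, and 1 was higher and 1 lower at week 2 and at week 4. The part of these shifts in the results below was not tested, and in bulk RNA fewer cells of a type and less RNA per cell cannot be told apart. Whether replicate libraries came from different mice is not stated, and the p-values measure the spread between these libraries. At day 3, day 7 and week 4, 1 replicate had Y-linked counts and the other almost none. The 2 libraries of each of these groups were therefore not copies of 1 sample. In uninjured hearts and at week 2 the spread may be technical. Y-linked genes took 0.0124% to 0.0429% of counts in 5 libraries (day 3 replicate 1, day 7 replicate 2, both of week 2, week 4 replicate 2) and no more than 6.24e-05% in the remaining 5, including both uninjured ones. Both week 2 libraries were among the first 5 and both uninjured ones among the remaining 5. In week 2 over uninjured this difference therefore cannot be told apart from time. The part of this difference in the other results was not tested either. The sample codes of week 2 RNA replicate 2, and of the ATAC-seq libraries of week 4 and of replicate 2 at day 7 and week 2, begin with another letter than those of the same assay's uninjured libraries. What the letter stands for is not stated, and at week 4 it cannot be told apart from time in the ATAC-seq data.

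Over the 5 groups together, Sfrp1, Sfrp2, Frzb and Dkk3 differed (edgeR quasi-likelihood F-test with Benjamini-Hochberg adjustment over all genes, adjusted p = 0.00342, 3.81e-05, 0.000207 and 0.000225). These were 4 of the 8, and 15.7% of the 14968 genes tested passed the same test. Sfrp4, Wif1 and Dkk2 did not pass (adjusted p = 0.0674, 0.141 and 0.485). Sfrp5 had no count in any library and was not tested. A change at 1 time is called below where the adjusted p of the same edgeR fit of all 10 libraries is under 0.05, and a fold change is on the log2 scale with its standard error (SE). The SE was derived from the test, as the absolute log2 fold change divided by the square root of its F statistic.

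**Figure D1:**
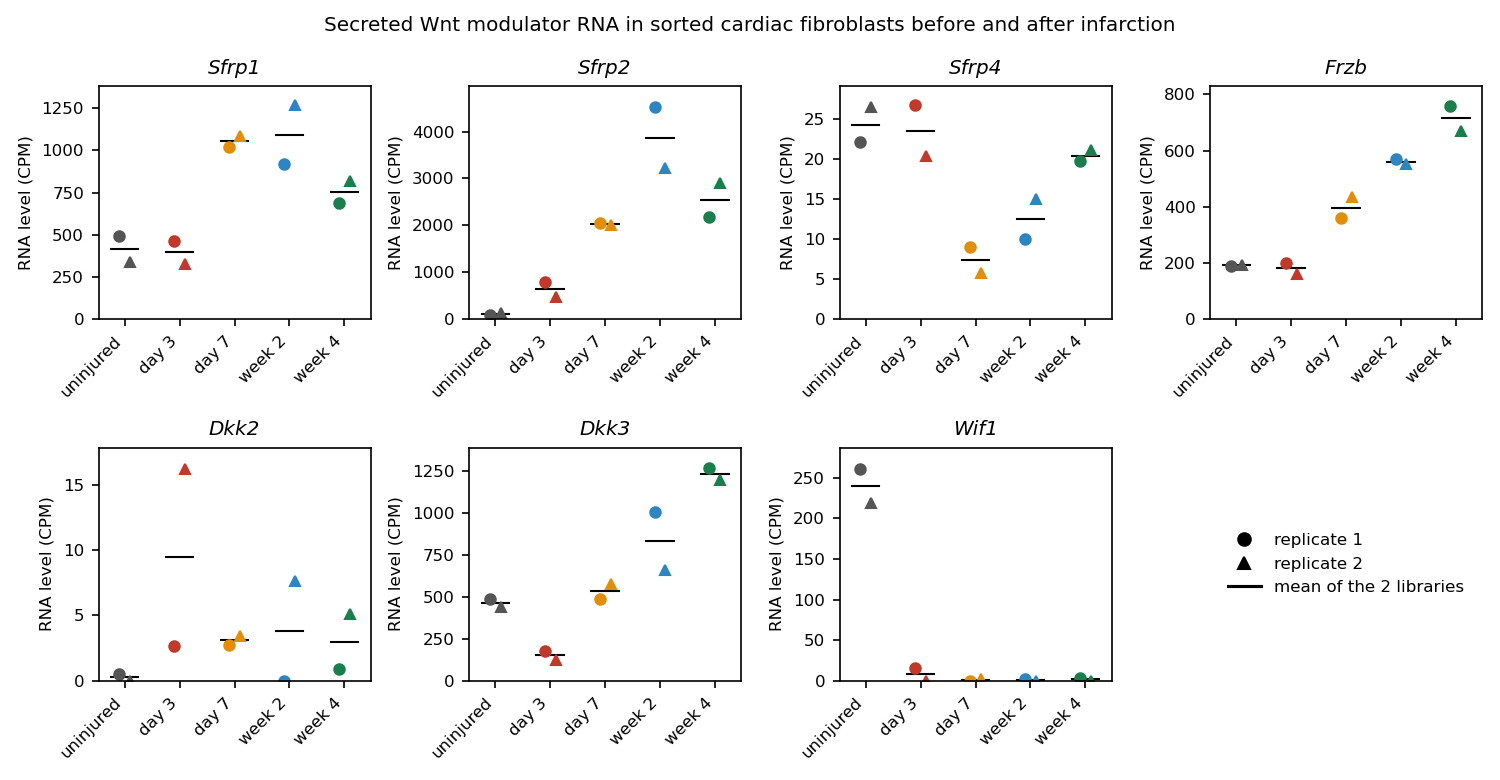
RNA level (CPM, linear axes from 0) of the 7 detected genes in each library, by group. Circles and triangles are replicates 1 and 2 and bars are means of the 2 libraries. Sfrp2 has the widest range, Wif1 is at most 15.1 CPM in all libraries after MI, and Dkk3 dips at day 3.

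Sfrp2 (ENSMUSG00000027996, chr3:83766321-83774316, mm10) rose at all 4 times. It had 84.4 and 132 CPM in uninjured hearts, 793 and 472 CPM at day 3, 2050 and 1998 CPM at day 7, 4514 and 3214 CPM at week 2 and 2186 and 2912 CPM at week 4. Every library after MI lay above both uninjured ones, and the day 3 libraries lay below all later ones. The log2 fold change over uninjured was 2.55 ± 0.32 at day 3 (adjusted p = 0.000578), 4.23 ± 0.34 at day 7 (adjusted p = 2.32e-05), 5.16 ± 0.36 at week 2 (adjusted p = 1.4e-05) and 4.56 ± 0.35 at week 4 (adjusted p = 3.22e-05), all by edgeR. These calls were kept in each of 16 alternative fits per time, with the highest adjusted p, 0.0102, at day 3. Sfrp2 was the only one of the 8 genes with fractional counts, which it had in all 10 libraries, and how many of its reads could also belong to another feature is not known. In the deposited count table, the spans given here for the 8 genes overlap no other gene.

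Sfrp1 (ENSMUSG00000031548, chr8:23411502-23449632), a member of the same family with known roles in Wnt inhibition, was not called at day 3 (log2 fold change −0.07 ± 0.26) and rose later. Its level was 491 and 339 CPM in uninjured hearts, 461 and 329 CPM at day 3, 1022 and 1088 CPM at day 7, 919 and 1270 CPM at week 2 and 688 and 820 CPM at week 4. The uninjured and day 3 libraries covered the same range, and all 6 later libraries lay above them. It rose by 1.35 ± 0.26 at day 7 (edgeR adjusted p = 0.00912) and by 1.40 ± 0.26 at week 2 (adjusted p = 0.0145). At week 4 the fold change was 0.86 ± 0.26 and missed the threshold (edgeR adjusted p = 0.128), although DESeq2 gave an adjusted p of 0.0296. The day 7 call was lost without uninjured replicate 2 (log2 fold change 1.08, edgeR adjusted p = 0.092) or day 7 replicate 2 (1.29, adjusted p = 0.0591). The week 2 call was lost without uninjured replicate 2 (1.17, edgeR adjusted p = 0.127) or week 2 replicate 2 (1.14, adjusted p = 0.0971), and with only the 2 groups fitted (adjusted p = 0.0913).

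Frzb (ENSMUSG00000027004, chr2:80411970-80447625) climbed with time after day 3. Its libraries had 190 and 194 CPM in uninjured hearts, 201 and 160 CPM at day 3, 359 and 434 CPM at day 7, 568 and 553 CPM at week 2 and 760 and 670 CPM at week 4. From day 7 on the groups did not overlap with one another or with the earlier ones. For this and the other members, the share of all genes with groups separated like this was not counted. Week 2 against day 7 was not called for Frzb (log2 fold change 0.50 ± 0.20, edgeR adjusted p = 0.249). The log2 fold change over uninjured was −0.09 ± 0.20 at day 3, which was not called, 1.05 ± 0.20 at day 7 (edgeR adjusted p = 0.00973), 1.54 ± 0.21 at week 2 (adjusted p = 0.00185) and 1.90 ± 0.21 at week 4 (adjusted p = 0.000725). The week 2 and week 4 calls were kept in all 16 alternatives. The day 7 call was lost without uninjured replicate 1 (1.03, edgeR adjusted p = 0.0611), uninjured replicate 2 (1.04, adjusted p = 0.0798) or day 7 replicate 2 (0.89, adjusted p = 0.0953).

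Sfrp4 (ENSMUSG00000021319, chr13:19623104-19632994) was lower at day 7 and back near its uninjured level at week 4. It had 22.1 and 26.4 CPM in uninjured hearts, 26.7 and 20.3 CPM at day 3, 9.06 and 5.79 CPM at day 7, 9.99 and 14.96 CPM at week 2 and 19.7 and 21.0 CPM at week 4. The day 7 libraries lay below all others. Sfrp4 fell at day 7 by 1.71 ± 0.45 on the log2 scale (edgeR adjusted p = 0.0376), and the fold changes of −0.05 ± 0.43 at day 3, −0.96 ± 0.44 at week 2 and −0.25 ± 0.43 at week 4 were not called. Day 7 against day 3 gave −1.66 ± 0.45 (edgeR adjusted p = 0.0944). Week 4 against day 7 gave 1.46 ± 0.44 (edgeR adjusted p = 0.107), and neither was called. The day 7 call was lost in 6 of 16 alternatives, with an adjusted p of 0.0774 when only the 2 groups were fitted and of 0.108 without uninjured replicate 1, 0.245 without uninjured replicate 2, 0.258 without day 7 replicate 2, 0.0558 without week 4 replicate 1 and 0.0574 without week 4 replicate 2 (edgeR). Sfrp5 (ENSMUSG00000018822, chr19:42197971-42202252) had 0 counts in all 10 libraries, which allows at most 3 counts per library, or 0.146 to 0.186 CPM by library, for counting error only.

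Dkk3 (ENSMUSG00000030772, chr7:112116017-112159057) moved both ways. It had 489 and 439 CPM in uninjured hearts, 177 and 125 CPM at day 3, 486 and 579 CPM at day 7, 1004 and 660 CPM at week 2 and 1267 and 1195 CPM at week 4. The day 3 libraries were the lowest of the 10 and the week 4 libraries the highest, while the day 7 and uninjured libraries overlapped. Dkk3 fell at day 3 by 1.62 ± 0.25 on the log2 scale (edgeR adjusted p = 0.00174), a call kept in all 16 alternatives. It rose at week 4 by 1.41 ± 0.25 (edgeR adjusted p = 0.0116), a call lost without uninjured replicate 2 (1.32, adjusted p = 0.0877) or week 4 replicate 1 (1.36, adjusted p = 0.0574). The fold changes of 0.20 ± 0.25 at day 7 and 0.84 ± 0.25 at week 2 were not called (edgeR adjusted p = 0.727 and 0.136), although DESeq2 gave an adjusted p of 0.0145 at week 2. The summed fibroblast markers given above were 30931 and 19537 CPM at day 3 and 34772 and 41170 CPM at day 7. In uninjured hearts they were 61179 and 64028 CPM. These markers did not move as one, and their part in the Dkk3 changes was not tested.

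Dkk2 (ENSMUSG00000028031, chr3:132085292-132180304) was low, at 0 to 16.2 CPM. It had 9 and 0 counts in uninjured hearts, 45 and 292 at day 3, 55 and 57 at day 7, 0 and 135 at week 2 and 14 and 104 at week 4. In CPM these were 0.480 and 0, then 2.67 and 16.2, 2.71 and 3.44, 0 and 7.59, and 0.866 and 5.07. The week 2 group overlapped with the uninjured one, and the other 3 groups lay above it. The log2 fold changes of 5.26 ± 2.29 at day 3, 3.64 ± 2.14 at day 7, 3.95 ± 2.17 at week 2 and 3.59 ± 2.14 at week 4 were not called (edgeR adjusted p = 0.176, 0.372, 0.575 and 0.542). At day 3 the call was gained with DESeq2 (adjusted p = 0.0257) and without the filter on low counts (edgeR adjusted p = 0.0126).

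Wif1 (ENSMUSG00000020218, chr10:121033960-121100650) was not called, though its fold changes at day 7, week 2 and week 4 were the largest of the 7 genes tested. It had 4891 and 4090 counts in uninjured hearts, 254 and 0 at day 3, 0 and 26 at day 7, 29 and 0 at week 2 and 60 and 2 at week 4. This is 261 and 219 CPM in uninjured hearts and 15.1 and 0 CPM at day 3, with no later library above 3.71 CPM. All 8 libraries after MI lay far below both uninjured libraries, and in each group after MI 1 library had 0 to 2 counts and the other 26 to 254. The log2 fold changes were −5.00 ± 2.47 at day 3, −8.32 ± 2.97 at day 7, −8.20 ± 2.94 at week 2 and −7.02 ± 2.75 at week 4 (edgeR adjusted p = 0.285, 0.197, 0.391 and 0.379, DESeq2 adjusted p = 0.336, 0.0966, 0.185 and 0.275). The gene was called lower with only the 2 groups fitted at day 7, week 2 and week 4 (edgeR adjusted p = 0.0174, 0.0201 and 0.0155) and at all 4 times without the filter on low counts (adjusted p at most 1.83e-32). The direction for Wif1 did not change in any of 16 alternatives per time.

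**Figure D2:**
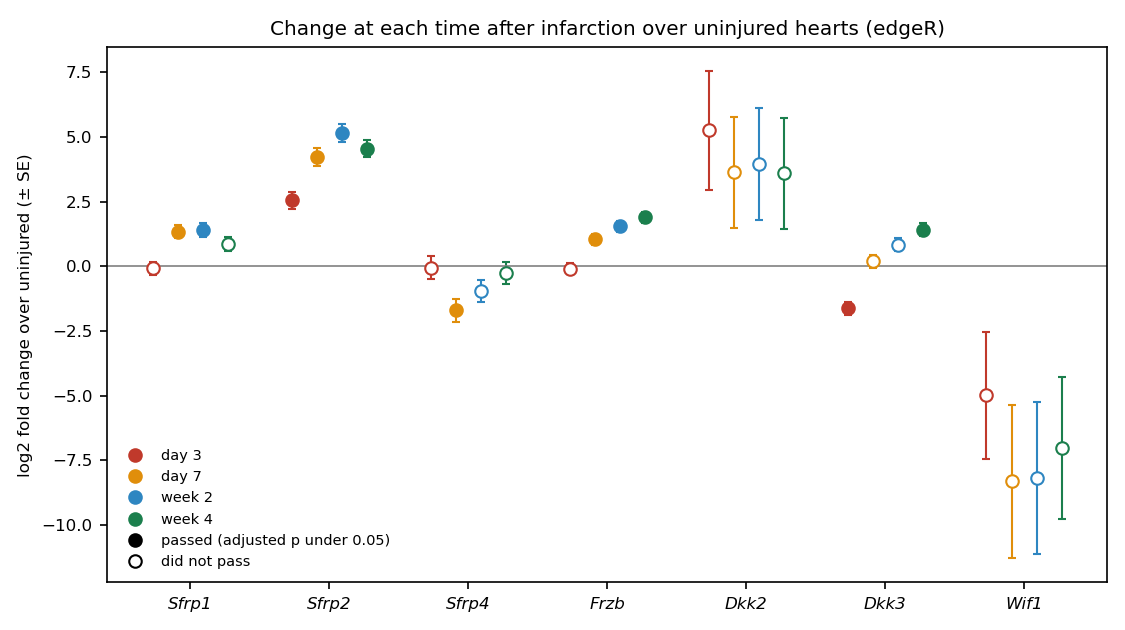
Log2 fold change over uninjured (points) with its SE (bars) for the 7 genes tested, in order of time within each gene, by edgeR. Filled points passed an adjusted p of 0.05, and open points did not. Sfrp2 passed at all 4 times, while Dkk2 and Wif1 have the longest bars and passed at none.

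At day 3, 1 of the 8 genes was called higher (Sfrp2) and 1 lower (Dkk3), against 7.39% of all genes tested higher and 4.4% lower. At day 7, 3 were higher (Sfrp1, Sfrp2, Frzb) and 1 lower (Sfrp4), against 4.39% and 2.76% of all genes. At week 2, 3 were higher (Sfrp1, Sfrp2, Frzb) and 0 lower, against 1.44% and 0.454%. At week 4, 3 were higher (Sfrp2, Frzb, Dkk3) and 0 lower, against 1.85% and 0.474%. The median log2 fold change of the 7 genes tested was −0.07 at day 3, 1.05 at day 7, 1.40 at week 2 and 1.41 at week 4, against medians of −0.02, 0, −0.01 and 0.00 over all genes. These comparisons share the uninjured libraries. With edgeR, 3, 5, 6 and 5 of the 7 had an unadjusted p under 0.05 at day 3, day 7, week 2 and week 4. Of all 14968 genes tested, 3738, 3017, 1579 and 1905 did so at these times.

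Times after MI were also compared directly. At day 7 against day 3, Sfrp1 (log2 fold change 1.42 ± 0.26), Sfrp2 (1.68 ± 0.31), Frzb (1.14 ± 0.20) and Dkk3 (1.82 ± 0.25) were higher (edgeR adjusted p = 0.0213, 0.0213, 0.0194 and 0.00734) and 0 were lower, against 0.822% and 0.555% of all genes. All 4 calls were lost without day 3 replicate 2 (adjusted p = 0.187, 0.156, 0.201 and 0.0604), and those of Sfrp1, Sfrp2 and Frzb without day 7 replicate 2 (0.103, 0.103 and 0.125). The Sfrp2 call was also lost without day 7 replicate 1 (adjusted p = 0.0573), and the Frzb call with only the 2 groups fitted (adjusted p = 0.063). At week 2 against day 7, edgeR called 0 of the 7 in either direction, against 0.194% of all genes higher and 0.454% lower. Sfrp2, Frzb and Dkk3 had an unadjusted edgeR p under 0.05 there, as had 2416 of the 14968 genes tested. DESeq2 called 1 member there, and 1057 over all genes. At week 4 against day 7, Frzb (0.85 ± 0.20) and Dkk3 (1.21 ± 0.25) were higher (edgeR adjusted p = 0.0489 and 0.0288), against 0.895% higher and 1.52% lower over all genes. The Frzb call was lost in 9 of 16 alternatives (adjusted p from 0.052 to 0.317), among them the fits without either library of uninjured, day 7 or week 4 hearts, and the Dkk3 call without any 1 of the 4 libraries compared (adjusted p from 0.0796 to 0.162).

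Genes with the pattern most like each member were sought among 7026 well-expressed genes by Pearson's r of log2 CPM over the 10 libraries, which share group, depth and scaling. Frzb was nearest to Comp (r = 0.992), a gene of cartilage and tendon matrix, then to Fmod (0.958), for the collagen-binding proteoglycan fibromodulin, and Nkd2 (0.957), for an intracellular Wnt inhibitor. Sfrp1 was nearest to Pdgfrl (0.976), Eln (0.974), which encodes elastin, and Mdk (0.968), for the growth factor midkine. Sfrp2 was nearest to Ccn5 (0.969), Adarb1 (0.946) and Cdkn2b (0.938). Dkk3 was nearest to Mn1 (0.975), P3h2 (0.972), which encodes a collagen prolyl hydroxylase, and Rin2 (0.971). Sfrp4 was nearest to Amd1 (0.962), Ino80c (0.958) and Tinf2 (0.925). Dkk2 and Wif1 were too low on average for this search.

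Around the 8 genes, most of the pathway's RNA was not called. Over all genes tested, edgeR called 7.39%, 4.39%, 1.44% and 1.85% higher at day 3, day 7, week 2 and week 4. Called lower were 4.4%, 2.76%, 0.454% and 0.474%. An unadjusted edgeR p under 0.05 was found for 3738, 3017, 1579 and 1905 of the 14968 genes. Of 7 other secreted modulators tested, 0 were called at any time by edgeR, with 1, 0, 1 and 3 at an unadjusted p under 0.05 and 1, 0, 1 and 2 called by DESeq2 at day 3, day 7, week 2 and week 4. Of 10 Wnt ligand genes tested, 0 were called at any time by edgeR, with 0, 1, 0 and 1 at an unadjusted p under 0.05 and 0, 0, 0 and 1 by DESeq2. Wnt9a had 66.5 ± 9.51 CPM at week 4 and 6.97 ± 2.88 CPM in uninjured hearts (SD, n = 2 each) and missed the edgeR threshold (adjusted p = 0.0615). Of 19 signal transduction genes, edgeR called 1 higher (Wls) and 1 lower (Tcf7l2) at day 3, 1 higher (Wls) at day 7 and at week 2, and 0 at week 4 (4 at an unadjusted p under 0.05 and 0 by DESeq2). Wls, which escorts Wnt proteins to the cell surface, rose at day 3, with 473 ± 3.60 against 245 ± 2.20 CPM (edgeR adjusted p = 0.00519), and was also called at day 7 and week 2. With each library left out in turn, these Wls calls were kept in 8, 7 and 2 of 10 fits, and all were lost without either uninjured library (highest adjusted p 0.0691, 0.103 and 0.286). Tcf7l2, which encodes a TCF/LEF factor, fell at day 3, with 89.2 ± 6.22 against 165.6 ± 4.68 CPM (edgeR adjusted p = 0.0311), and the call was lost without any 1 of the 4 libraries compared (highest adjusted p 0.186). Of 19 receptor and coreceptor genes, edgeR called 0 higher and 3 lower at day 3 (Fzd4, Fzd7 and Ror1), 1 higher at day 7 (Lrp5), 0 at week 2 (3 at an unadjusted p under 0.05 and 1 by DESeq2) and 2 higher at week 4 (Fzd1 and Lrp5). Lrp5, the coreceptor that Dkk2 binds, had 36.3 ± 13.7 CPM at week 4 against 3.20 ± 1.12 CPM in uninjured hearts (edgeR adjusted p = 0.00873), and the call was lost without uninjured replicate 2 or week 4 replicate 1 (highest adjusted p 0.107). Each of these receptor calls was lost without uninjured replicate 2, and each was kept in 5 to 8 of 10 such fits.

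Among 13 genes listed as Wnt targets, edgeR called 1 higher and 2 lower at day 3, 2 and 1 at day 7, 2 and 0 at week 2, and 2 and 0 at week 4. The shares of all genes called at these times are given above. Ccn4, which encodes a matricellular protein, was higher at all 4 times, with 271 ± 94.6, 325 ± 49.5, 196 ± 58.6 and 54.3 ± 18.4 CPM at day 3, day 7, week 2 and week 4 against 4.36 ± 2.40 CPM in uninjured hearts, and kept its call with any 1 library left out. Nkd2 was higher from day 7 on, with 122 ± 12.3, 121 ± 32.0 and 250 ± 54.0 CPM at day 7, week 2 and week 4 against 44.0 ± 3.20 CPM in uninjured hearts. Its week 2 call was lost without either uninjured library (highest edgeR adjusted p 0.0673). Bambi, which encodes a pseudoreceptor of the TGF-beta family, was lower at day 3 and day 7, with 32.3 ± 0.948 and 29.7 ± 5.48 CPM against 79.6 ± 22.1 CPM in uninjured hearts (edgeR adjusted p = 0.0254 and 0.0245). Both calls were lost without uninjured replicate 2 or either library of the time compared (highest adjusted p 0.201 and 0.208). The other gene lower at day 3 was Fzd7, which is also in the receptor list. Axin2, a feedback target of canonical signalling, stayed at or under 2.60 CPM in every library. Of 4 procollagen C-proteinase and enhancer genes, 1 was called over uninjured, Pcolce2, which encodes an enhancer of procollagen trimming. It was lower at day 3 and day 7, with 155 ± 20.4 and 114 ± 60.2 CPM against 388 ± 96.8 CPM in uninjured hearts (edgeR adjusted p = 0.0243 and 0.00971), and each call was lost without uninjured replicate 2 (highest adjusted p over left-out libraries 0.174 and 0.0606).

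The ATAC-seq peak lists were called per library and held 63901 to 107798 peaks on the chromosomes, most at day 3. The week 4 lists, with 69238 and 70195 peaks, lay between the uninjured ones, with 63901 and 71909. Peaks of all lists were merged into 143334 regions, of which 187 lie in the windows of the 8 genes. A region was counted as gained where both libraries of a time and neither uninjured library had a peak, and as lost in the opposite case. With 2 libraries a group there is no test of these counts. In the 8 windows 43 regions (23.0%) were gained at day 3, 24 (12.8%) at day 7, 18 (9.63%) at week 2 and 9 (4.81%) at week 4, against 17.2%, 9.29%, 5.08% and 2.76% of all merged regions. Lost were 3 (1.6%), 4 (2.14%), 5 (2.67%) and 7 (3.74%), against 1.09%, 2.37%, 2.66% and 3.68%. With peaks of −log10 q of 5 or more only, the shares gained were 23.6%, 5.71%, 7.14% and 2.86% in the 8 windows, against 20.2%, 8.79%, 5.56% and 2.2% of all regions, so that the day 7 share lay below that of all regions. Without day 7 replicate 1 the day 7 shares were 16.6% and 16.8%. The number of peaks in a whole list moved with the counts gained, and its part in them was not tested. Of the 187 regions, 46 (24.6%) had a peak in all 10 libraries, against 27.2% of all regions.

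**Figure D3:**
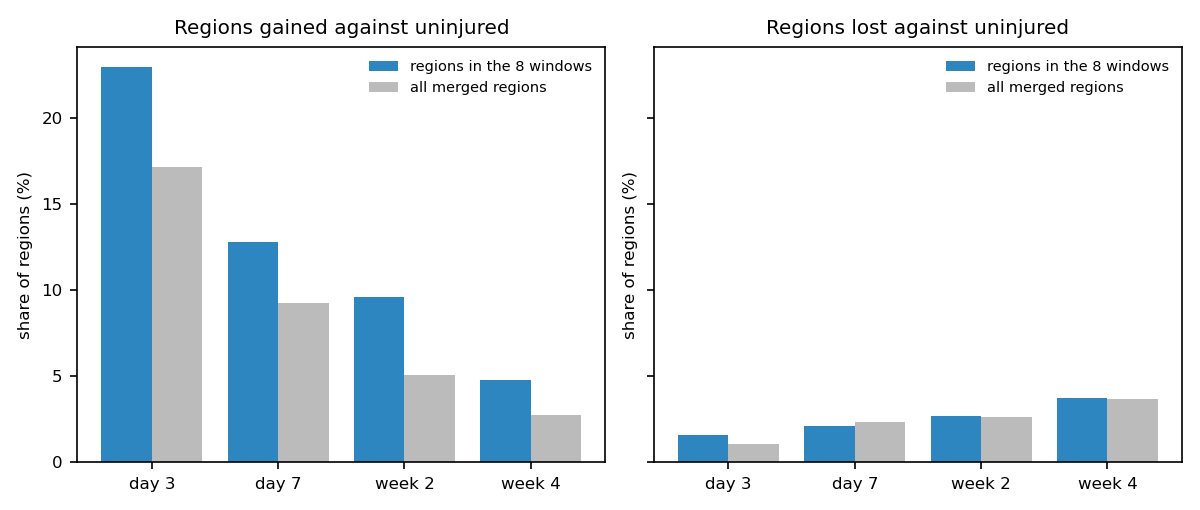
Share of regions (percent, axis from 0) gained (left) and lost (right) against uninjured at each time, for the 187 regions in the 8 windows (blue) and all 143334 merged regions (grey). The shares gained fall with time in both sets. With all peaks used they are higher in the 8 windows, 23.0% against 17.2% at day 3 and 4.81% against 2.76% at week 4, but with the stricter peaks the day 7 share is lower, 5.71% against 8.79%.

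The start of the gene separated the members into those with a peak throughout and those without. A region over the start had a peak in all 10 libraries for Sfrp2 (chr3:83763343-83770009), Frzb (chr2:80443782-80450031) and Wif1 (chr10:121032882-121034734). The promoters printed above for these 3 genes were covered by a peak in all 10 libraries. At Wif1 the peak's fold enrichment over background, a value of the authors' peak caller that describes a peak within its own list, was 37.4 and 45.5 at day 3, 36.0 and 21.6 at day 7, 30.2 and 31.9 at week 2 and 21.0 and 13.3 at week 4, against 26.2 and 35.5 in uninjured hearts. The Wif1 start therefore had a peak in libraries of every time at which the gene's RNA was at most 15.1 CPM. The Dkk2 start region (chr3:132084012-132087701) had no peak in either uninjured library and was gained at day 3, day 7 and week 2, with fold enrichment of 8.16 and 13.9, 9.39 and 5.96, and 6.64 and 4.52. At week 4 replicate 2 had a peak (4.28) and replicate 1 had none. The printed Dkk2 promoter itself was covered in 5 libraries, both of day 3 and 1 each of day 7, week 2 and week 4. Sfrp5, with no RNA counts, had a start region (chr19:42201171-42202513) with a peak in 6 libraries, 1 of them uninjured, of fold enrichment 3.12 to 4.56, and 1 of these peaks passed a −log10 q of 5. The strand of Sfrp1, Sfrp4 and Dkk3 was not used here, and each had a region with peaks in all 10 libraries at an end of its span, chr8:23409359-23414704, chr13:19621945-19625124 and chr7:112157083-112159628.

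Dkk3 had the most regions, 42. The shares gained were 19.0%, 11.9%, 16.7% and 9.52% at day 3, day 7, week 2 and week 4. Those of all regions were 17.2%, 9.29%, 5.08% and 2.76%. The share of all regions gained at any time was not counted, so the next count has no such share beside it. At some time 12 of the 42 Dkk3 regions were gained. One of them, 5.05 kb beyond the higher-coordinate end of the gene (chr7:112164111-112166015, overlapping no gene of the table), was gained at all 4 times and also with peaks of −log10 q of 5 or more only. Its fold enrichment was 9.36 and 10.4 at day 3, 19.6 and 11.9 at day 7, 18.9 and 16.7 at week 2 and 15.7 and 12.3 at week 4, with no peak in uninjured hearts. The region appeared at day 3, when Dkk3 RNA was lower, as well as at week 4, when it was higher. A second Dkk3 region 10.6 kb beyond the same end (chr7:112169674-112173174) had peaks in uninjured hearts and at every later time but none at day 3. A region 32.1 kb beyond the higher-coordinate end of Sfrp1 (chr8:23481683-23483017) was also gained at all 4 times, though not with the stricter peaks at week 4. These and a region inside Mical2 in the Dkk3 window were 3 of 187 regions gained at all 4 times, or 1.6%, against 1.19% of all regions.

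Sfrp2 had 8 regions gained at day 3, 5 at day 7, 3 at week 2 and 0 at week 4, of 26 in its window. These are 30.8%, 19.2%, 11.5% and 0%, against 17.2%, 9.29%, 5.08% and 2.76% of all regions. The region 60.9 kb beyond the lower-coordinate end (chr3:83704394-83705420) was gained at day 3, day 7 and week 2 with peaks of fold enrichment 5.10 to 8.88, and had no peak at week 4. A region 0.575 kb beyond the gene's end (chr3:83774891-83777002) was gained at day 3 and day 7. Sfrp2 RNA was called higher at week 4 as at the earlier times, and its link to these regions was not tested. Frzb had 3, 2, 1 and 1 regions gained of 19 (15.8%, 10.5%, 5.26% and 5.26%). The week 4 one lies in the gene span (chr2:80419876-80420673), and 2 of its 4 peaks were at week 4.

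Every member but Frzb lost a region at some time, 4 at Dkk2, 2 at Dkk3 and 1 each at Sfrp1, Sfrp2, Sfrp4, Sfrp5 and Wif1. Of all merged regions, 1.09%, 2.37%, 2.66% and 3.68% were lost at day 3, day 7, week 2 and week 4. The share of all regions lost at any time was not counted. Dkk2 lost 0, 2, 2 and 4 of 16 regions at day 3, day 7, week 2 and week 4 and none of its regions had a peak in all 10 libraries. Those lost at week 4 included chr3:132210639-132211774, 30.3 kb beyond the gene's end, and chr3:132000291-132001689, 83.6 kb before its start, with peaks of 5.41 to 9.36 in uninjured hearts over the 4 regions. In the 8 windows 1 of 187 regions, or 0.535%, was lost at all 4 times, against 0.486% of all regions. It lies 20.8 kb beyond the end of Wif1 (chr10:121121484-121122564), with fold enrichment of 6.24 and 3.60 in uninjured hearts. Only 1 of these 2 peaks passed a −log10 q of 5, so the region was not counted as lost under that threshold. Wif1 also gained 6 of 15 regions (40.0%) at day 3, 2 (13.3%) at day 7 and 1 (6.67%) at week 4. Of all regions 17.2%, 9.29% and 2.76% were gained at these times. Among those gained at Wif1 was chr10:121173217-121174491, 72.6 kb beyond the gene's end, with 11.5 and 7.14 at day 3 and no peak in uninjured hearts. In the Sfrp4 window a region 67.6 kb beyond the higher-coordinate end (chr13:19700617-19701695) was lost at week 2 and week 4. The windows of Sfrp1 and Dkk2 hold no other gene of the table, and the other 6 windows hold 1 to 6 other genes, to which a region may belong.

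**Figure D4:**
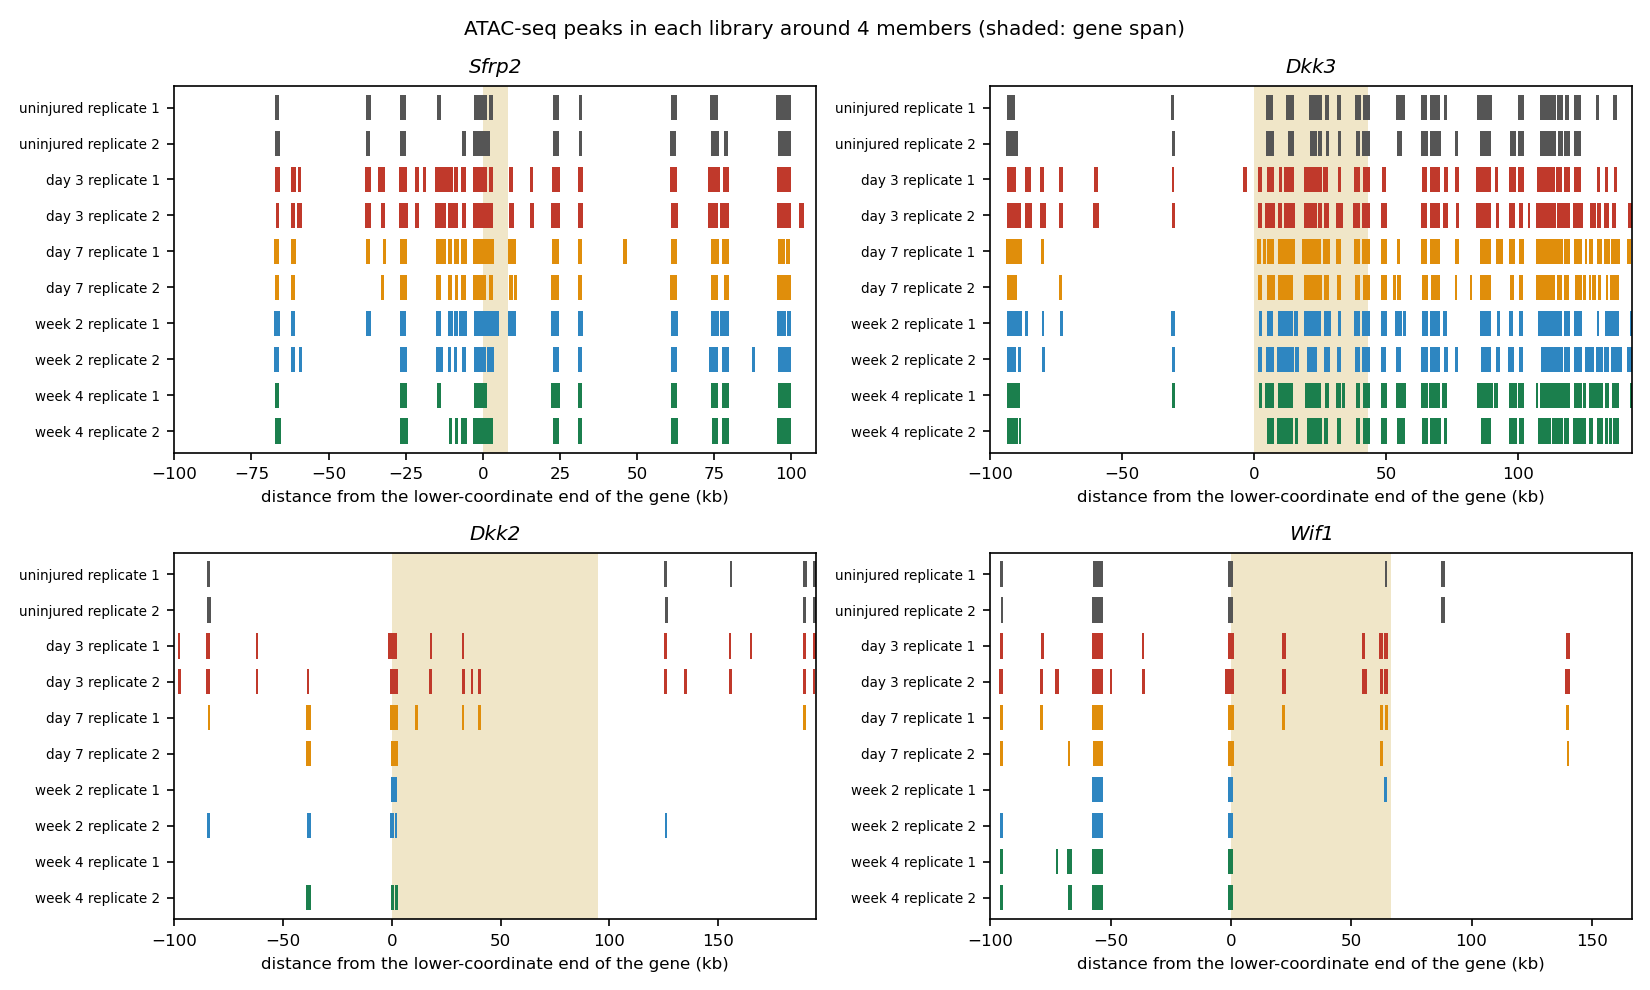
ATAC-seq peaks (bars) in each of the 10 libraries along the windows of Sfrp2, Dkk3, Dkk2 and Wif1. The x axis is the distance in kb from the lower-coordinate end of the gene and shading marks the gene span. The Dkk2 start has no bar in the 2 uninjured rows, the Wif1 start has one in all 10 rows, and the Dkk3 region just beyond the gene is missing only in uninjured hearts.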

How the data were processed

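Expected counts per Ensembl gene make up the deposited RNA table, some of them with decimals, and the totals differ between libraries. STAR 2.5.3a, Bowtie2 2.3, MACS2, DESeq2, FastQC, Trim Galore 0.6 and the builds GRCm38 and mm10 are named in the submitters' processing notes without a role. The counting program, the strand counted and the peak thresholds were not given in the sources used here. Every deposited ATAC-seq file lists the peaks of 1 library, and by the narrowPeak format the deposited columns give each peak's fold enrichment (a ratio), its −log10 p and −log10 q and a score. Groups were read from the sample labels.

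Counts were rounded and fitted in R 4.3.3 with edgeR 4.0.16 (TMM, filterByExpr by group, 14968 genes kept, robust quasi-likelihood fit of all 10 libraries by group, 5 residual degrees of freedom, Benjamini-Hochberg threshold 0.05). The fit was tested on simulated data. Filtering removed 1 of the 8 members, Sfrp5. CPM use TMM library sizes. Counting floors cover counting error only, since PCR copies are not independent molecules. Peaks on chromosomes were merged where they overlapped by 1 base or more. Peak lists hold no read depth, so none is given for ATAC-seq. Alternatives were RLE and upper-quartile scaling, no filter, DESeq2 1.42.0, a replicate block, fits of 2 groups only, each library left out in turn, stricter peaks, a peak over 50% or more of a region and a 50 kb window. The members and gene lists were chosen with earlier results of these data known. Named beside the members were the 3 genes of most similar pattern with a mean log2 CPM of 4 or more, list genes that passed over uninjured and, chosen after their values were seen, Wnt9a and Axin2. Regions named were those at the start, and gained or lost ones chosen after their values were seen.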

Additional observations from a re-analysis of the deposited data

Results flagged for a closer look

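Changes that differed between times were found by the direct comparison of those times in the same edgeR fit, with Benjamini-Hochberg adjustment over all genes. Between day 7 and day 3 the difference was tested and passed for Sfrp1 (log2 fold change 1.42), Sfrp2 (1.68), Frzb (1.14) and Dkk3 (1.82), each higher at day 7 in both libraries. Over uninjured, the day 3 level was called lower for Dkk3 (log2 fold change −1.62 ± 0.25) and higher for Sfrp2 (2.55 ± 0.32). For Sfrp1 (−0.07 ± 0.26) and Frzb (−0.09 ± 0.20) it was not called. Between week 4 and day 7 the difference passed for Frzb (0.85) and Dkk3 (1.21), again higher at the later time in both libraries. As given above, each call between times was lost in some of the alternative fits.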

How the results depend on the processing

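Across the 16 alternatives to the main fit, 486 single-gene fold changes of the members kept direction and side of the threshold, 38 lost the call, 13 gained one and 6 changed sign. Sfrp2 at all 4 times over uninjured, Dkk3 at day 3, and Frzb at week 2 and week 4 kept their calls throughout. The changes of sign came with 1 library left out, where the day 3 log2 fold change over uninjured ran from −0.35 to 0.21 for Sfrp1, −0.27 to 0.11 for Sfrp4 and −0.28 to 0.041 for Frzb, and the week 2 one of Dkk2 from −5.18 to 9.11. Counts under an alternative setting are named in this section only where they differed from the main ones by a factor above 1.5. Smaller changes over uninjured include the Wif1 call gained at day 7 without the filter. Others are the DESeq2 calls of Dkk2 at day 3, Dkk3 at week 2 and Sfrp1 at week 4. Without the filter on low counts, members called over uninjured numbered 4 at day 3 and 5 at week 2 and at week 4, and 1 at week 2 against day 7. DESeq2 also called 1 at week 2 against day 7. At week 4 against day 7, members called numbered 1 with upper-quartile scaling, 1 with the replicate block and 1 with only the 2 groups fitted. The block changed no other count of members called by more than that factor. Replicate numbers did not pair the samples, since differences between replicates correlated by −0.0181 to 0.0288 between groups.

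All genes called without the filter numbered 1846 at day 7, 796 at week 2 and 971 at week 4 over uninjured, 814 at day 7 against day 3, 1029 at week 2 against day 7 and 1306 at week 4 against day 7. With DESeq2 they numbered 2829, 1998, 802 and 859 at day 3, day 7, week 2 and week 4 over uninjured, 974 at day 7 against day 3, 1057 at week 2 against day 7 and 1312 at week 4 against day 7. With only the 2 groups fitted they numbered 635, 171 and 653 at day 7, week 2 and week 4 over uninjured, 119 at day 7 against day 3 and 6 at week 2 against day 7. The cause of these differences was not tested.

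With 1 library left out, all genes called over uninjured ran from 677 to 2078 at day 3, 312 to 1315 at day 7, 134 to 450 at week 2 and 101 to 491 at week 4. They ran from 31 to 418 at day 7 against day 3, 4 to 424 at week 2 against day 7 and 32 to 578 at week 4 against day 7. Members called ran from 1 to 4 at day 7, 2 to 3 at week 2 and 2 to 3 at week 4 over uninjured, 0 to 4 at day 7 against day 3 and 0 to 2 at week 4 against day 7. A lone library left in a group was assumed to vary like the other groups.

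Regions gained in the 8 windows ran from 43 to 63 at day 3, 24 to 43 at day 7, 17 to 28 at week 2 and 9 to 20 at week 4 with 1 ATAC-seq library left out. Regions lost ran from 3 to 5, 4 to 11, 5 to 10 and 7 to 13. With peaks of −log10 q of 5 or more only, 8, 10 and 4 regions were gained at day 7, week 2 and week 4. With a peak required over 50% or more of a region, 14 were gained at week 4. With 50 kb windows 24, 14, 11 and 4 were gained at day 3, day 7, week 2 and week 4, and 1 and 3 were lost at week 2 and week 4. Dkk2, Wif1 after MI and Sfrp5 had 0 to 292 counts per library. Replicates of a group could differ widely, with 254 and 0 counts for Wif1 and 45 and 292 for Dkk2 at day 3. Whether depth limited the calls of these genes was not tested.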
